A study of Homo sapiens with 4 samples.

Results

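Transcripts of 10 genes around the kinase complex mTORC1 were followed in ARP1 cells, an established human multiple myeloma line. They were DDIT4, DEPTOR, MTOR, RPTOR, AKT1S1, TSC1, TSC2, RHEB, EIF4EBP1 and RPS6KB1, each found once by its symbol among the 58825 genes of the deposited table. They were chosen by name, as known parts of the pathway, and selected on earlier results of the same counts and FPKM, in which overexpressing and wild type cells were compared. Their values in that contrast are therefore a description without a test. Poly(A)-selected RNA was sequenced as paired ends in 4 libraries, 2 from cells overexpressing RFWD2 and 2 from wild type ARP1 cells, the control. RFWD2 is the older symbol of COP1, an E3 ubiquitin ligase. The labels give no vector, promoter or number of clones. The series' text calls the libraries biological repeats without saying whether these were separate cultures, so p-values reflect the spread among the libraries at hand, and some of it may be technical.

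mTORC1 is a protein kinase complex that promotes protein synthesis and cell growth when amino acids, energy and growth factors are at hand. The small GTPase RHEB switches the complex on at the lysosome, and the TSC1-TSC2 complex holds RHEB in its inactive form. The stress-induced protein DDIT4, also called REDD1, acts through TSC1-TSC2 to lower mTORC1 activity, while DEPTOR and AKT1S1 (PRAS40) bind the complex and inhibit it directly. Active mTORC1 phosphorylates the translation repressor encoded by EIF4EBP1 and the ribosomal protein S6 kinase encoded by RPS6KB1. DEPTOR is known for high expression in a subset of multiple myelomas. All values here are transcript levels, and the kinase activity of mTORC1 and the phosphorylation of its targets were not measured.

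DDIT4 was the member that differed most between libraries, and its promoter window is shown for that reason, beside that of TSC2, the partner through which DDIT4 acts. Entries of the RefSeq promoter table (GRCh38.p14) were used for 7 of the 10 members. Each covered 250 bases before and 50 bases after the gene start. AKT1S1, DEPTOR and EIF4EBP1 were left out, so the motif statements do not cover them. DDIT4 is at chr10:72273674-72273973 and TSC2, at the upstream of its 2 listed starts, at chr16:2047735-2048034, both on the plus strand and written 5′ to 3′. Capitals mark matches to the core of the hypoxia response element, ACGTG, and to the amino acid response element TGATGNAAN, searched on both strands.
DDIT4: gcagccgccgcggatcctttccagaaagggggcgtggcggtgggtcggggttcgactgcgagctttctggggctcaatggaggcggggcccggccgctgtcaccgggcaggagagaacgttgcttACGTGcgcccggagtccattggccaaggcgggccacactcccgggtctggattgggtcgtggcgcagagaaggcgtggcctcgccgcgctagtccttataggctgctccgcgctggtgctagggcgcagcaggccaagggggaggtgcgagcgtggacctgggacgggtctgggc
TSC2: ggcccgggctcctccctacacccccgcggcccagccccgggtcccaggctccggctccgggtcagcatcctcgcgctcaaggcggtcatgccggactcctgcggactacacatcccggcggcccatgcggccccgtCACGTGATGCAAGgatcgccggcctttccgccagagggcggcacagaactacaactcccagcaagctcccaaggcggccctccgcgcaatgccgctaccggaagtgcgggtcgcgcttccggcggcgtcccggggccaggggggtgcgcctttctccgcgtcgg
The DDIT4 window held 1 ACGTG match, 125 to 121 bases before the gene start. Of 35116 promoter windows of the same length, 21.4% held this motif. The TSC2 window held an E-box, CACGTG, which overlaps ACGTG matches on both strands and also TGATGCAAG, a match to the amino acid response element. CACGTG was in 7.26% and TGATGNAAN in 3.61% of all windows. RHEB had 1 match to ACGTG on the opposite strand, 81 to 77 bases before its start, and the windows of MTOR, TSC1, RPTOR, RPS6KB1 and the second TSC2 start held none of these motifs. The FOXO motif GTAAACA, present in 3.42% of windows, was in none of these 8 member windows. A match describes letters in the window and is not a site of measured binding.

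The libraries held between 62143098 and 70713792 estimated counts each. The overexpressed gene, listed as COP1 (ENSG00000143207), was at 13.5 and 13.9 FPKM (fragments scaled to transcript length and library size) in overexpressing cells and at 5.99 and 8.93 FPKM in control cells, so its groups did not overlap, as was so in the same direction for 12.8% of genes tested. Its fitted log2 fold change was 0.86 ± 0.36 (SE), which edgeR did not call (adjusted p = 1.0). The 8 plasma cell markers summed to between 1061 and 1184 FPKM in the 4 libraries, and no list of T cell, myeloid, erythroid, stromal, epithelial or adipose markers exceeded 3.61 FPKM in sum. The defining markers CD3D, LYZ, COL3A1 and ADIPOQ were listed at 0 in every library. The sums were higher in overexpressing than in control cells for epithelial (3.61 and 3.27 versus 2.15 and 1.99 FPKM), myeloid (1.21 and 1.28 versus 0.71 and 0.35 FPKM), erythroid (1.90 and 1.28 versus 1.22 and 1.17 FPKM) and stromal markers (0.74 and 0.33 versus 0.29 and 0.09 FPKM). Of these markers, KRT18, CSF1R and HBA1 reached 1 FPKM in a library, and the part of such RNA in the members' values was not tested. Libraries of different genotype with the same number were more alike than libraries of the same genotype. Across 11200 genes, which are not independent, Pearson's r was 0.96 and 0.97 for the former pairs and 0.90 and 0.93 for the latter, on log2 CPM (counts per library total, scaled by TMM factors). Values are therefore given per library and within each library number. Between numbers the scale matters. The log2 ratio of FPKM, number 2 over number 1, lies above the difference in log2 CPM by a median of 0.34 in overexpression and 0.24 in wild type over 5788 well expressed genes, with interquartile ranges of 0.0011 and 0.00084. Within number 1 the 2 scales differ by less than 0.01 and within number 2 by 0.09. Directions below are those of log2 CPM, and a member whose direction turns with the scale is named.

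Levels per transcript length covered more than 2 orders of magnitude between the lowest and the highest library value of the 10 genes. By mean over the libraries, DDIT4 (172 FPKM) and EIF4EBP1 (113 FPKM) stood highest, above 96.9% or more of the 11229 genes averaging 1 FPKM or more. DEPTOR (14.8 FPKM), RHEB (11.8 FPKM), AKT1S1 (8.20 FPKM) and MTOR (6.66 FPKM) followed. TSC2 (2.78 FPKM), RPTOR (2.72 FPKM), RPS6KB1 (2.21 FPKM) and TSC1 (1.48 FPKM) were lowest. The library values of neighbours in this order overlapped, except between EIF4EBP1 and DEPTOR, between RHEB and AKT1S1 and between MTOR and TSC2. The order thus separated EIF4EBP1 from DEPTOR and the genes below it, while DDIT4, from 22.4 to 400 FPKM, ranged over the level of EIF4EBP1.

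**Figure D1:**
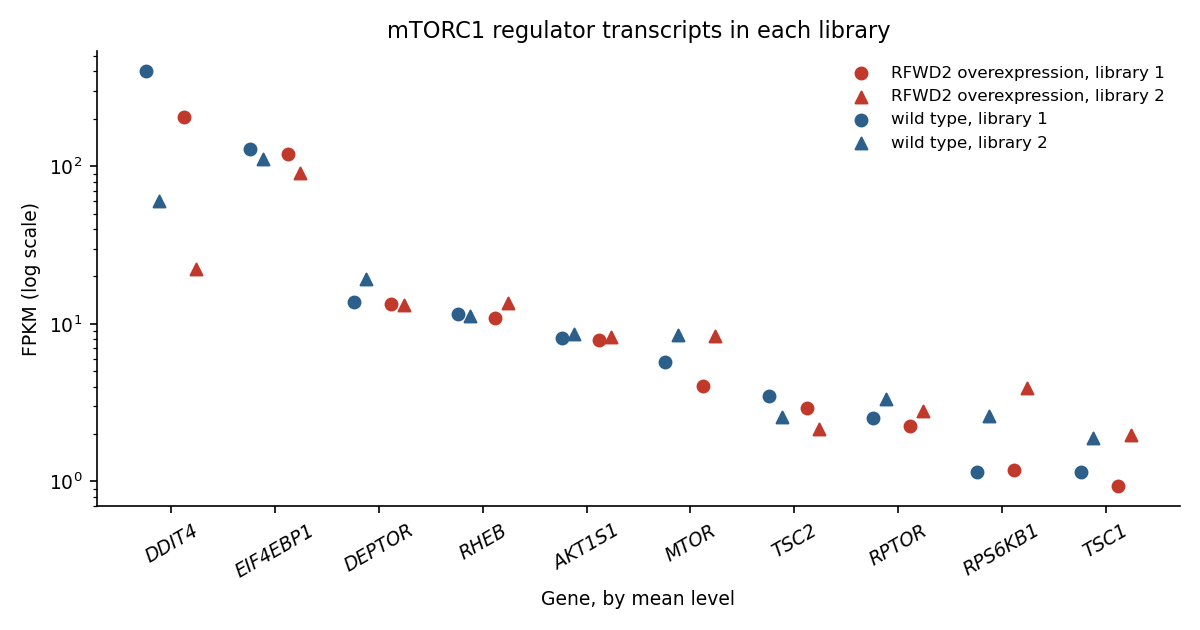
FPKM on a log scale of each of the 10 genes in each library, ordered by mean level; circles are libraries numbered 1, triangles those numbered 2, red overexpression and blue wild type. DDIT4 spans 22.4 to 400 FPKM with both number 1 libraries on top, whereas AKT1S1 stays between 7.88 and 8.58 FPKM.

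Among the inhibitors, DDIT4 differed most between genotypes when libraries of the same number were compared, with less in overexpressing cells, and it differed still more between the numbers. DDIT4 (ENSG00000168209, plus strand of chromosome 10, 72273924 to 72276036) stood at 206 and 22.4 FPKM in overexpression libraries 1 and 2 and at 400 and 60.5 FPKM in wild type libraries 1 and 2. Both number 1 libraries lay above both number 2 libraries, and within each number the overexpression library was the lower, so the genotypes overlapped. Wild type exceeded overexpression 1.94-fold within number 1 and 2.70-fold within number 2, or by log2 CPM differences of -0.95 and -1.52. The means were 114 ± 130 FPKM for overexpressing and 230 ± 240 FPKM for control cells (SD, n = 2 each), and the fitted log2 fold change was -1.01 ± 1.28 (SE). At least 3880 counts stood behind each value, so counting error was small beside these differences. In bulk libraries such as these, fewer cells carrying a transcript and less of it per cell cannot be told apart. The antisense gene DDIT4-AS1 was listed at 0 in every library.

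Between the numbers DDIT4 differed 9.18-fold in overexpression and 6.61-fold in wild type, in each case with the number 1 library higher. Among the 11229 genes averaging 1 FPKM or more, 101 had a larger ratio of highest to lowest library than the 17.8 of DDIT4. In a fit across all genes with genotype as a term, DDIT4 was lower in libraries numbered 2 by a log2 fold change of -3.25 ± 0.20 (SE, edgeR's quasi-likelihood test, Benjamini-Hochberg adjusted p = 0.048). That comparison called 7.2% of 18873 genes, 2.96% higher and 4.24% lower, and DDIT4 was the 1 member called. The call was kept in 4 of 5 other settings, with adjusted p from 0.022 to 0.084, and was lost without a filter on low counts, where 0 genes were called. In fits with no genotype term and 1 library left out, a setting chosen after seeing the data, DDIT4 stayed lower in number 2. It was called when either number 2 library was left out, with -2.57 lacking the overexpression one and -4.10 lacking the wild type one. It was not called when a number 1 library was left out, with -3.54 lacking overexpression (edgeR adjusted p = 0.16) and -2.58 lacking wild type (edgeR adjusted p = 0.071). When 1 library is dropped from the genotype contrast, the numbers are no longer balanced between genotypes. The fitted value of DDIT4 was then -3.67 when overexpression library 1 was dropped and -0.12 when overexpression library 2 was. It was 1.13 when wild type library 1 was dropped and -1.83 when wild type library 2 was. The pooled fold change of DDIT4 and its sign therefore rested on which libraries were included, while the differences within each number had 1 sign.

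DEPTOR, the inhibitor that binds mTOR itself, was the only member whose genotypes did not overlap in FPKM. In log2 CPM those of RPTOR did not overlap either, so this trait depended on the scale. DEPTOR (ENSG00000155792, plus strand of chromosome 8, 119873717 to 120050918) was at 13.3 and 13.1 FPKM in overexpressing cells versus 13.8 and 19.1 FPKM in control cells. Wild type library 2 stood above the other 3, which lay within 13.1 to 13.8 FPKM. The means were 13.2 ± 0.16 and 16.4 ± 3.78 FPKM (SD, n = 2 each). The log2 CPM difference was -0.04 within number 1 and -0.64 within number 2, with a fitted log2 fold change of -0.34 ± 0.36 (SE). Among the 18873 genes tested, 7.73% likewise had no overlap in FPKM with overexpression the lower. The share without overlap in log2 CPM was not computed. The fitted value was negative in all 11 alternative settings, from -0.53 without overexpression library 1 to -0.16 without overexpression library 2. As both overexpression values lay below both wild type values, leaving out a library could not turn this sign.

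The other inhibitors differed little with genotype. TSC2 (ENSG00000103197, plus strand of chromosome 16, 2047967 to 2089245), the GTPase-activating subunit that acts on RHEB, was at 2.93 and 2.14 FPKM in overexpressing cells versus 3.47 and 2.56 FPKM in control cells. Within each number the overexpression library was the lower, by -0.24 and -0.36 in log2 CPM, and both number 1 libraries were the higher. TSC1 (ENSG00000165699, minus strand of chromosome 9, 132891348 to 132946874), which stabilises TSC2, had 0.94 and 1.96 FPKM versus 1.14 and 1.90 FPKM. Its order by number was the opposite of that of TSC2, with both number 2 libraries higher, and its genotype difference within number 2 was -0.05 in log2 CPM but positive in FPKM. AKT1S1 (ENSG00000204673, minus strand of chromosome 19, 49869033 to 49878356) had 7.88 and 8.20 FPKM versus 8.16 and 8.58 FPKM, the narrowest range of the 10 genes. TBC1D17 on the opposite strand overlaps the AKT1S1 model with up to 18.2 FPKM and PKD1 overlaps that of TSC2 with up to 2.54 FPKM. No source used here says whether counting used strand, so reads of these pairs may not be fully apart.

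The kinase and its scaffold had lower values in overexpressing cells within both numbers. MTOR (ENSG00000198793, minus strand of chromosome 1, 11106535 to 11262507), the catalytic subunit, was at 4.01 and 8.38 FPKM in overexpressing cells versus 5.76 and 8.50 FPKM in control cells. Both number 2 libraries were the higher, and overexpression library 1 was the lowest. The genotype difference was -0.52 within number 1 and -0.11 within number 2. RPTOR (ENSG00000141564, plus strand of chromosome 17, 80544819 to 80966368), the raptor scaffold that recruits substrates, had 2.23 and 2.79 FPKM versus 2.53 and 3.34 FPKM. Its genotypes overlapped in FPKM but not in log2 CPM, with log2 CPM differences of -0.18 and -0.35 within the numbers. RHEB (ENSG00000106615, minus strand of chromosome 7, 151466012 to 151520120), the activating GTPase, had 10.9 and 13.5 FPKM versus 11.6 and 11.3 FPKM. The difference was -0.09 within number 1 and 0.17 within number 2, the only member with opposite signs in log2 CPM. The pseudogene copies RHEBP1 and RHEBP2 carried up to 495 and 1623 counts beside at least 2881 for RHEB, and the sum of the 3 differed by -0.07 and -0.09, so the sign of RHEB within number 2 depended on how the copies were counted.

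The direct targets of mTORC1 had fitted log2 fold changes of -0.21 ± 0.40 for EIF4EBP1 and 0.35 ± 0.61 for RPS6KB1 (SE), each smaller than its error. EIF4EBP1 (ENSG00000187840, plus strand of chromosome 8, 38030534 to 38060365), the repressor of cap-dependent translation, was at 120 and 91.0 FPKM in overexpressing cells versus 129 and 112 FPKM in control cells. Within each number the overexpression library was the lower, by -0.10 and -0.39, and the genotypes overlapped. RPS6KB1 (ENSG00000108443, plus strand of chromosome 17, 59893046 to 59950421) was at 1.19 and 3.90 FPKM in overexpressing cells versus 1.15 and 2.60 FPKM in control cells. It was the only member with higher values in overexpression within both numbers, by 0.05 and 0.49, and both number 2 libraries were far above both number 1 libraries. Between numbers RPS6KB1 differed by a log2 fold change of 1.15 ± 0.25 (SE), with an edgeR adjusted p of 0.052 that ran from 0.029 to 0.086 over the settings tried and was under 0.05 in 3 of 6.

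Counted over the 10 members, 8 had lower log2 CPM with overexpression within both numbers, 1 had higher values within both and 1 had opposite signs. Of all 18873 genes tested, 27.2% were lower within both numbers and 26.4% higher. The median fitted log2 fold change of the members was -0.24, beside 0.01 over all genes tested. These counts are given as they stand, because the members were proposed with this contrast known. All 10 members passed the filter on low counts. In the main fit edgeR called 0% of genes in this contrast, with 1.83% of genes at an unadjusted p under 0.05 and no member among them. DESeq2 called 55 genes, again with no member among them.

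**Figure D2:**
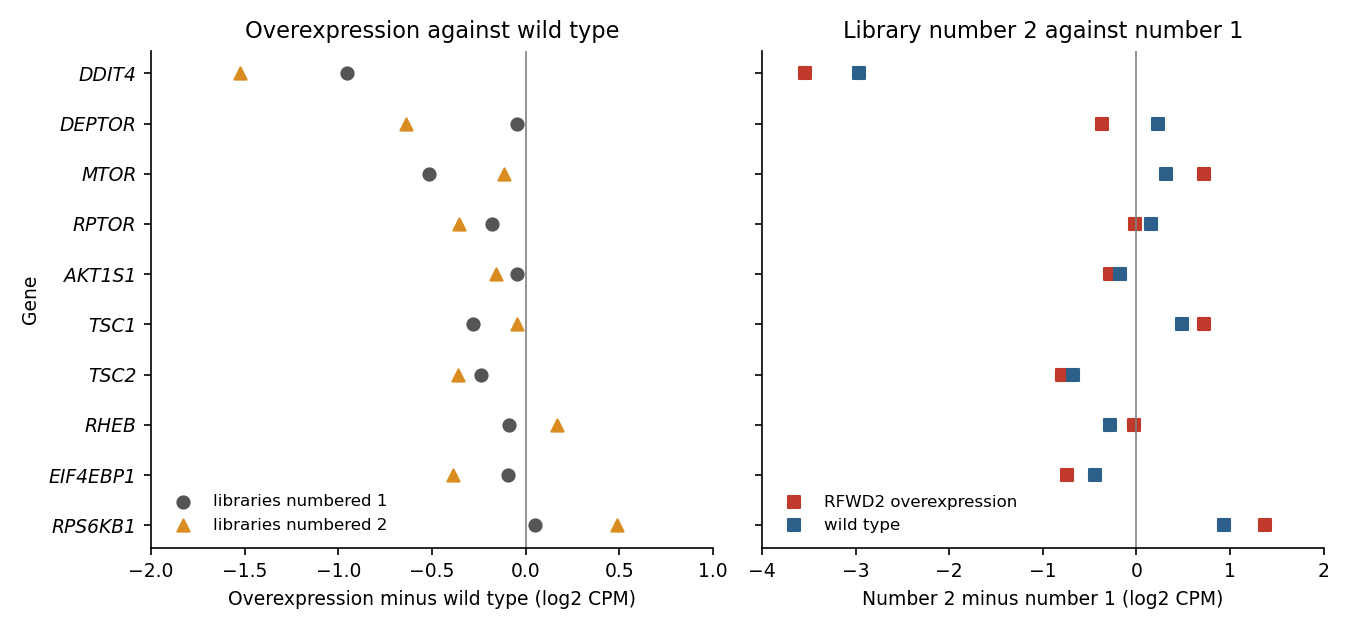
Left, log2 CPM of overexpression minus wild type for each gene, within libraries numbered 1 (circles) and 2 (triangles); right, number 2 minus number 1 within each genotype (red overexpression, blue wild type), on a wider axis. DDIT4 lies at -0.95 and -1.52 on the left and at -3.54 and -2.97 on the right, and RPS6KB1 is positive in all 4 differences.

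The other members were compared between library numbers in the same way. In FPKM, 5 members had both number 2 libraries above both number 1 libraries and 3 had both below, as did 44.4% and 20.5% of all genes tested. Beside DDIT4, EIF4EBP1 and TSC2 had lower FPKM in both number 2 libraries without passing the test (log2 fold changes of -0.59 and -0.74, edgeR adjusted p = 0.081 and 0.060), and RPS6KB1, TSC1 and MTOR had higher FPKM, again without passing (1.15, 0.60 and 0.52, edgeR adjusted p = 0.052, 0.11 and 0.12). TSC2 was called in 2 of 6 settings and MTOR in 1. RPTOR, AKT1S1, DEPTOR and RHEB differed by 0.07, -0.23, -0.07 and -0.16. The direction of AKT1S1, DEPTOR and RHEB turned between log2 CPM and log2(FPKM + 1), and that of RPTOR did not. The share of counts from the mitochondrial genome was 7.46% (overexpression) and 7.68% (wild type) in libraries numbered 1, and 4.96% and 4.27% in those numbered 2. Its part in these differences was not tested.

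The rest of the pathway was read from 6 lists of 86 genes, written by function with earlier results of these data known. All 86 were found, 83 passed the filter on low counts, and edgeR called 0 higher and 0 lower with overexpression. The 83 split into 43 positive and 40 negative fitted log2 fold changes, with a median of 0.01, beside 0.01 over all genes tested. Within both numbers 24 were lower and 22 higher. At an unadjusted p under 0.05 there was 1 gene, PRR5L, a partner of the second mTOR complex, with 0.73 and 1.63 FPKM versus 0.39 and 0.50 FPKM (log2 fold change 1.31, edgeR adjusted p = 1.0); it is named after its value was seen.

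The mTOR complex partners had a median log2 fold change of -0.13 over 8 genes. MLST8, the subunit shared by both mTOR complexes, was at 10.3 and 7.03 FPKM in overexpressing cells versus 11.7 and 11.05 FPKM in control cells, so both overexpression libraries were the lower. RICTOR, the scaffold of the second complex, was low, at 0.50 and 1.18 FPKM versus 0.62 and 1.24 FPKM. On the TSC axis, TBC1D7, the third subunit of the TSC complex, and RHEBL1, a paralogue of RHEB, had log2 fold changes of 0.08 and 0.01. DDIT4L, the paralogue of DDIT4, was listed at 0 in 3 libraries and at 0.04 FPKM in wild type library 2, and was not tested.

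In the nutrient-sensing arm, SESN2 had the same order of libraries in FPKM as DDIT4. So did WDR24 of this arm and the members TSC2 and EIF4EBP1, among others. The share of all genes with this order was not computed. SESN2, a stress-induced leucine sensor that restrains mTORC1, was at 28.4 and 9.69 FPKM in overexpressing cells versus 38.3 and 24.3 FPKM in control cells. Its overexpression library was the lower within each number, by -0.43 and -1.42, and each genotype had its higher value in library 1. Across the 18 genes of the GATOR complexes, KICSTOR and sensors, 13 fitted values were negative and 5 positive, with a median of -0.13. Within the numbers 8 were lower in both, 4 higher in both and 6 opposite. CASTOR1, an arginine sensor, had 2.85 and 2.17 FPKM versus 2.37 and 1.45 FPKM. DEPDC5 and NPRL2 of the inhibitory GATOR1 complex and WDR24 of GATOR2 had log2 fold changes of -0.32, -0.02 and -0.27. Of the 13 genes of the Rag GTPases and Ragulator, which bring mTORC1 to the lysosome, 11 fitted values were positive and 2 negative, with a median of 0.12. Within the numbers 5 of these were higher in both, 2 lower in both and 6 opposite. RRAGC, RRAGD, LAMTOR1, FLCN and the lysosomal transporter SLC38A9 lay between 0.05 and 0.15.

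Upstream inputs and downstream effectors showed no common direction. The 24 tested genes of the PI3K, AKT and AMPK inputs had a median of 0.02, with 14 positive and 10 negative values, and 15 had opposite signs within the numbers. AKT1, the kinase that phosphorylates TSC2 and AKT1S1, was at 12.7 and 4.67 FPKM in overexpressing cells versus 11.5 and 7.42 FPKM in control cells. STK11, the kinase that activates AMPK, and PRKAA1, a catalytic subunit of AMPK, had log2 fold changes of 0.40 and 0.20. PDPK1, which activates AKT, had -0.18. The 18 tested effectors split 9 to 9 with a median of 0.00, and 6 were lower, 6 higher and 6 opposite within the numbers. The lowest value of the list was that of GRB10, an adaptor protein phosphorylated by mTORC1, which is named after its value was seen. It was scarce, at 0.04 and 0.03 FPKM in overexpressing cells versus 0.08 and 0.11 FPKM in control cells, from 27 to 91 counts a library (log2 fold change -1.44 ± 0.65, SE, edgeR adjusted p = 1.0). RPS6 was at 642 and 609 FPKM versus 696 and 581 FPKM. EIF4E, the cap-binding protein held by EIF4EBP1, had 0.99 and 3.13 FPKM versus 1.43 and 2.64 FPKM. EIF4EBP2 and RPS6KB2, paralogues of the targets, had log2 fold changes of -0.07 and -0.05, and EEF2K, PDCD4, TFEB and ULK1 had 0.06, 0.21, 0.11 and 0.43.

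**Figure D3:**
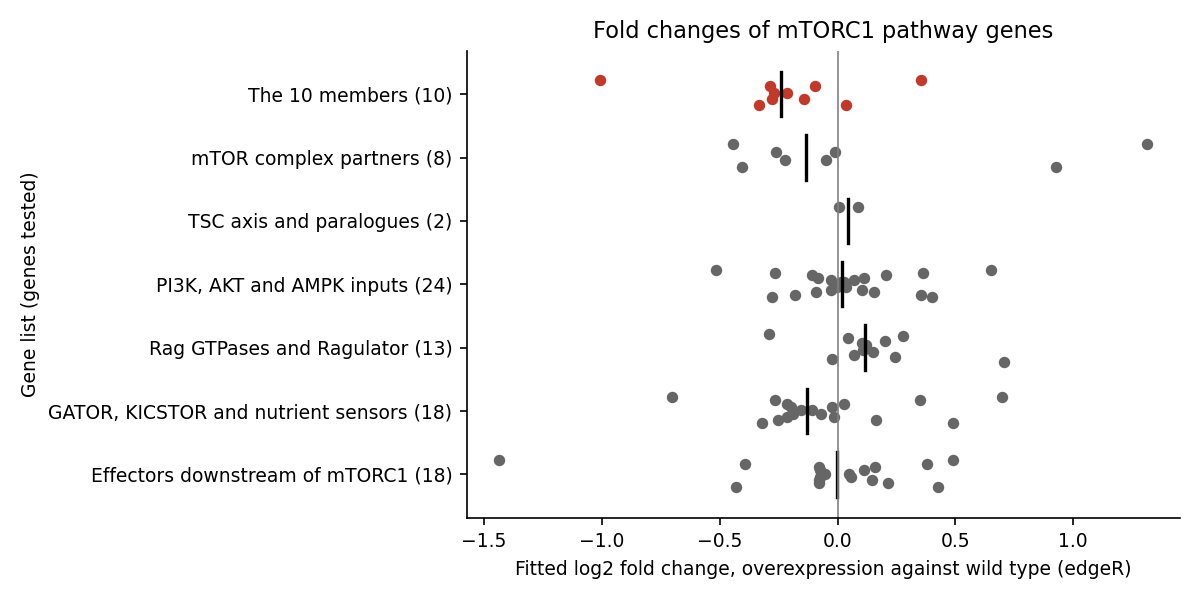
Fitted log2 fold change (edgeR) of overexpression against wild type for each tested gene of the 10 members (red) and the 6 pathway lists (grey), with vertical bars at list medians and the number of genes tested in brackets. The member median lies at -0.24 and the list medians between -0.13 and 0.12, and DDIT4 at -1.01 is the lowest member.

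Between library numbers, 10 of the 83 list genes were called by edgeR, 1 higher in number 2 and 9 lower, against 2.96% and 4.24% of all genes. PDCD4, a translation repressor degraded after phosphorylation by the S6 kinase, was the gene higher in number 2 (log2 fold change 0.98). SESN2 (-1.40), AKT1 (-1.33), TFEB (-1.09), ULK1 (-0.96), STK11 (-0.91) and LAMTOR1 (-1.93) were lower, with adjusted p from 0.048 to 0.050, as were LAMTOR2 (-0.89), INPPL1 (-0.99) and PIK3R2. Of these, TFEB drives lysosomal genes and ULK1 starts autophagy, both under inhibition by mTORC1. On log2(FPKM + 1), limma called 21 higher and 8 lower of 75, of which 8 were among the 10, and without the count filter edgeR called 0. With no genotype term, 5 of the 10 were called on all libraries and 0 to 4 with 1 library left out, none of them when it was a number 1 library. PIK3R2, a regulatory subunit of PI3K, was at 10.6 and 15.2 FPKM in the number 1 libraries of overexpression and wild type and at 0.03 and 0.12 FPKM in the number 2 libraries. Summed with an overlapping model on the same strand it was at 10.6 and 15.3 FPKM in number 1 and 8.14 and 6.36 FPKM in number 2.

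Genes with the profile most like that of DDIT4 were sought over the 4 libraries, by the smallest root mean square difference in log2(FPKM + 1) centred on each gene's own mean, among 9889 named genes averaging 1 FPKM or more. They were CHAC1 (difference 0.50), SNORD36C (0.61), PIK3R2 (0.61) and INHBE (0.68). CHAC1, which degrades glutathione, had 10.7 and 1.0 FPKM in overexpressing cells versus 14.1 and 4.33 FPKM in control cells. INHBE, a subunit of activin, had 19.6 and 3.92 FPKM versus 29.6 and 12.9 FPKM. As with DDIT4, CHAC1 and INHBE had the order wild type 1, overexpression 1, wild type 2, overexpression 2 from high to low. They were picked for likeness over these same libraries, so the shared order is no separate result. SNORD36C lies within RPL7A on the same strand, and the counting could share their reads. PIK3R2 also overlaps a model on its strand. Their sum was at 10.6 and 8.14 FPKM in overexpressing cells versus 15.3 and 6.36 FPKM in control cells, so the likeness of PIK3R2 to DDIT4 depended on how the models were counted.

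For DEPTOR the genes most alike were TNFRSF17 (0.03), U2AF2 (0.04), YAF2 (0.04) and ASB8 (0.04). TNFRSF17, the plasma cell surface receptor BCMA, had 46.3 and 43.3 FPKM versus 46.6 and 65.3 FPKM, and the splicing factor gene U2AF2 had 46.0 and 48.3 FPKM versus 48.4 and 68.7 FPKM. Each of these, picked for likeness to DEPTOR over the same libraries, was also highest in wild type library 2. The 4 libraries give few points, and the distances only rank genes.

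**Figure D4:**
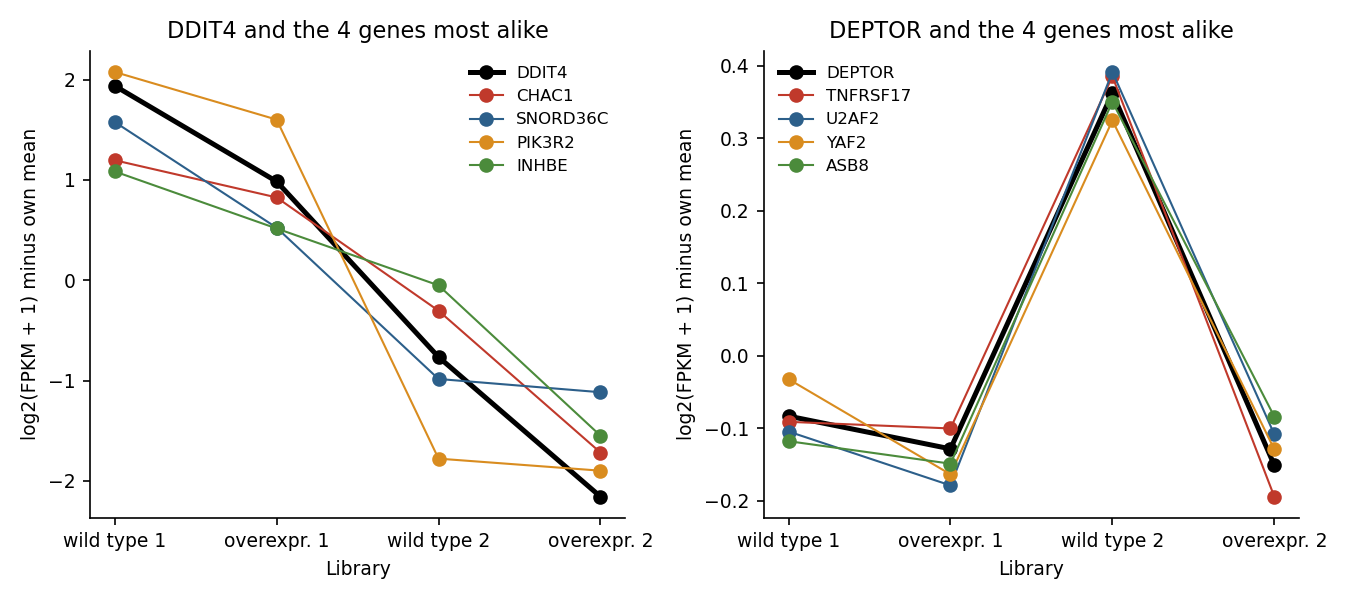
log2(FPKM + 1) minus each gene's own mean in the 4 libraries for DDIT4 (left) and DEPTOR (right), in black, and the 4 genes with the smallest root mean square difference from each; lines join values of one gene and imply no order of libraries. DDIT4 and its alike genes are high in both number 1 libraries, and DEPTOR and its alike genes are high in wild type library 2 alone.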

How the data were processed

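Per the file headers, the deposited table holds a count and an FPKM column for each of the 4 libraries. The deposited counts were treated as estimated counts, because 35.4% to 36.0% of values from 1 to 19 were multiples of 4. The FPKM placeholder 0.0001, as deposited by the authors, was set to 0. Tools named in the submitters' processing notes, without roles, are Bowtie 0.12.2, HISAT2 2.0 and StringTie 1.3.0, and the build named is mm8, of mouse, while all gene identifiers are human. Coordinates are those of the table, which names no build. Genotype and number come from the labels. Counts, already whole, were tested with edgeR 4.0.16 (R 4.3.3; TMM, filterByExpr, quasi-likelihood F test, Benjamini-Hochberg over 18873 genes, called at an adjusted p under 0.05), without a replicate block for genotype and with genotype as a term for library number. SE is the absolute log2 fold change over the square root of F. Differences within a number use log2 CPM (prior count 2). Exact permutation of 2 against 2 libraries cannot pass a threshold of 0.05 and was not used. Alternatives used DESeq2 1.42.0, limma 3.58.1 on log2(FPKM + 1) and on log2(FPKM + 0.1) for genes averaging 1 FPKM or more, RLE size factors, no filter, counts divided by 4, a replicate block and each library left out (for library number, with no genotype term). The fits were also run on simulated data, without a library-number effect in the genotype contrast, and no conclusion is drawn from them. The members, gene lists and rule for named genes (all members, COP1, list genes fixed by function, and the 4 genes most alike DDIT4 or DEPTOR) were chosen with earlier results of these data known. Genes named outside the rule are those called between library numbers, PRR5L and GRB10.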

Additional observations from a re-analysis of the deposited data

How the results depend on the processing

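For overexpression against wild type, edgeR called 0 genes, as it did with RLE size factors and counts divided by 4, and limma called 0 on either FPKM scale. DESeq2 called 55, edgeR without a filter on low counts 8, and fits without 1 library 73 to 183. Among the pathway list genes (83 tested, but 75 in both limma fits and 85 with DESeq2 or no filter) these gave 0, except that fits without 1 library gave 0 to 1, the 1 being PIK3R2, lower without overexpression library 1 and higher without wild type library 1. With the replicate number as a block edgeR called 0 genes and 0 list genes. DDIT4 then had a log2 fold change of -1.24 (edgeR unadjusted p = 9.0e-04, adjusted p = 0.48). That p-value is a description, because the members were chosen with this contrast known. Deviations from the group means of same-numbered libraries correlated at 0.59, a value that is the same for both pairs when each group has 2 libraries, and no label says that the numbers pair the libraries. Over the 11 alternatives, DEPTOR and RPTOR kept a negative sign in all, and the other 8 members changed sign in 1 or 2, each time when a library was left out. The genotypes of DEPTOR and RPTOR did not overlap in log2 CPM, so leaving out a library could not turn their sign. For library number 2 against 1, the 1359 calls (41.1% higher in number 2) became 2457 with RLE size factors, 3034 with counts divided by 4, 3563 with limma on log2(FPKM + 1) (73.2% higher) and 0 without a filter on low counts; the causes were not tested. Many adjusted p-values lay just under 0.05, so these calls hang on the setting. With 1 library left out, a genotype term leaves no residual degrees of freedom. Fits with no genotype term called 921 genes on all libraries and, with 1 left out, 0 and 3 (lacking a number 1 library, overexpression or wild type) or 112 and 128 (lacking a number 2 library), a setting chosen after seeing the data in which the lone library is assumed to vary like the pair.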

Other observations

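Ratios of FPKM between partner genes within a library do not depend on how libraries are scaled. The ratio of TSC1 to TSC2 was 0.32 and 0.33 in the number 1 libraries of overexpression and wild type and 0.92 and 0.74 in the number 2 libraries. The ratio of EIF4EBP1 to EIF4E, the repressor to the protein it binds, was 122 and 89.7 in number 1 and 29.1 and 42.3 in number 2. The ratio of DDIT4 to MTOR was 51.4 and 69.4 in number 1 and 2.68 and 7.12 in number 2. The ratio of RPS6KB1 to RPS6KB2, the paralogous S6 kinase genes, was 0.05 in each number 1 library and 0.21 and 0.14 in number 2. In all 4 pairs both libraries of one number lay apart from both of the other, while within a number the order of the genotypes varied between pairs. The other ratios computed also lay apart by number: DEPTOR and RPTOR to MTOR, RHEB to TSC2, AKT1S1 to RPTOR and EIF4EBP1 to EIF4EBP2. Among single genes tested, 44.4% had higher and 20.5% lower FPKM in both number 2 libraries, and the share among other gene pairs was not computed. The 4 pairs were chosen after their values were seen, and no test was made.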
